A study of Homo sapiens with 4 samples.

Results

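The libraries described here are the pair labelled SCC15 in a study of decitabine in oral squamous carcinoma cell lines. One library came from cells given 10 µM 5-aza-2'-deoxycytidine (decitabine) for 48 h, and the other from cells given the solvent DMSO. They are 2 of the 4 libraries in the series. The others are the same treatments of CAL27, a tongue carcinoma line, and are used only to set values side by side. SCC15 is an established human line catalogued as an oral squamous carcinoma of the tongue, and the labels state that it was bought from a cell bank and grown in multiwell plates. Polyadenylated RNA was sequenced from Trizol extracts. Each treatment had 1 library from 1 culture, so there is no spread between cultures and no test. All ratios and counts of genes below describe these 2 libraries.

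Decitabine is a cytidine analogue that enters DNA during replication and traps DNA methyltransferases on it, so that methylation is lost from newly made strands. Genes that many cells keep silent through methylated promoters, such as germline genes, cancer-testis antigens and the silent allele of imprinted genes, are among those known to become transcribed after such treatment. In epithelial and other cells the drug is also known to be followed by expression of cytokine, interferon-stimulated and antigen presentation genes.

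The label was set against marker genes first. Of 20 squamous epithelial markers, KRT6A, KRT6B, KRT14, KRT16, DSG3 and DSC3 had 0 reads in both SCC15-labelled libraries, and KRT5, a basal keratin, had 1 read with decitabine and 0 with DMSO. The summed level of the 20 markers was 725 CPM (reads per 1000000 reads, scaled by TMM) with decitabine and 632 with DMSO, against 3774 with decitabine and 4083 with DMSO in CAL27. Of the 20 markers 9 reached 1 CPM in either SCC15-labelled library, against 19 in either CAL27 library. CDH1, the epithelial cadherin, had 1 read with decitabine and 4 with DMSO, while VIM, a mesenchymal intermediate filament, had 27011 with decitabine and 37300 with DMSO. The neuroendocrine granule genes SCG2 (9526 reads with decitabine, 6031 with DMSO), PCSK1 (5646 with decitabine and 3835 with DMSO) and CHGA (2429 with decitabine and 1040 with DMSO) were abundant, although INSM1 had 0 reads in both. Of 18 listed neuroendocrine markers 11 reached 1 CPM in either library and 5 had 0 reads in both. The simple keratins KRT8 and KRT18 were present in both libraries. The squamous label is thus not borne out by the squamous keratins, DSG3 and DSC3, although other listed squamous markers were present. The cells are called SCC15-labelled throughout.

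The decitabine library held 17583706 counted reads and the DMSO library 14830807, with at least 10 reads for 14478 genes with decitabine and 13978 with DMSO. The 10 most abundant genes took 5.34% of reads with decitabine and 9.30% with DMSO. The ratio of decitabine over DMSO is given as a log2 value of TMM-scaled counts with 2 reads added. A gene counted as measured when it reached 1 CPM in either library, which held for 13894 of 51103 genes. It was called higher or lower when its ratio was at least 2-fold. Of the measured genes 54 had 0 reads in 1 library and could come out in a single direction only, which for the lists below concerns CXCL5, COL14A1, COL1A2, DAZL, GTSF1, H19, MEG3, SFRP1, TFPI2, PAX5, PNMA5, SERPINA1, TP63 and 4 cancer-testis antigens. A gene under 1 CPM in 1 library was likewise measured only through the other library, and could not be called in the opposite direction. Among others this concerns CCL20, IL1B, TNF, IL32, CSF2, CSF3, IL1A, COL5A1, OAS1, CXCL11, PCDHGA11, PCDHGA12, SFN and KRT19, all under 1 CPM with DMSO. Intervals are exact 95% binomial intervals of the ratio. They cover the error of counting reads in these libraries only, and PCR copies were not removed by molecular identifiers.

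With decitabine, 1846 of the 13894 measured genes (13.3%) were at least 2-fold higher and 862 (6.2%) at least 2-fold lower. The counts of list members called below stand beside these shares of all measured genes. The median log2 ratio was 0.07, with quartiles at -0.38 and 0.61 and the 5th and 95th percentiles at -1.09 and 1.57. Of the higher genes 379 reached 4-fold and 110 reached 8-fold, and of the lower genes 124 and 17 did. The whole counting interval lay beyond 2-fold for 933 genes on the higher side (6.72%) and 285 on the lower side (2.05%). Few reads stood behind some calls, since 290 higher and 251 lower genes had fewer than 30 reads in their higher library. Close to the threshold, 287 higher genes had log2 ratios between 1.0 and 1.1, and 340 genes between 0.9 and 1.0 were not called. The corresponding numbers on the lower side were 178 and 209. The higher genes together held 9.08% of all reads with decitabine and 3.56% with DMSO. The lower genes held 2.42% with decitabine and 9.78% with DMSO, much of it from the mitochondrial genome.

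**Figure D1:**
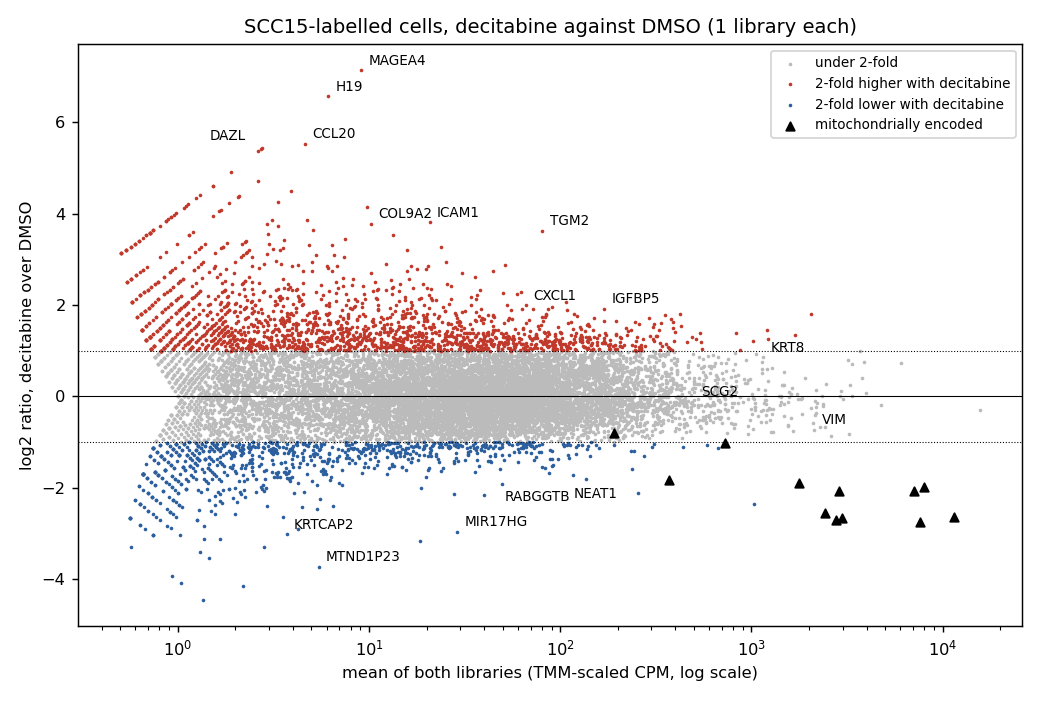
Log2 ratio of decitabine over DMSO in the SCC15-labelled pair (vertical axis) against the mean level of both libraries in TMM-scaled CPM (horizontal axis, log scale), 1 point per measured gene, with 2-fold limits as dotted lines. Genes at least 2-fold higher (red) outnumber those at least 2-fold lower (blue), the few points above a log2 ratio of 4 have low levels, and the mitochondrially encoded genes (triangles) lie below 0 at high levels.

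A set of 129 genes had 0 reads with DMSO and at least 10 with decitabine, which is 0.424% of the 30436 genes without DMSO reads. In the opposite direction 28 genes had 0 reads with decitabine and at least 10 with DMSO (0.0953% of 29388). Of the 129 newly detected genes 97 were protein-coding, against 5 of the 28 lost genes. Most of them were faintly detected. The median was 15 reads, 18 genes reached 30 reads, and 79 of the 129 stayed under 1 CPM, while just below the limit 31 genes had 9 reads. Together they held 2972 reads. The X chromosome carried 11 of them (8.53%), and chromosomes 1 and 19 carried 9 each. The share of the X chromosome among all genes without DMSO reads was not computed, so these counts show no enrichment.

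MAGEA4 (ENSG00000147381, chromosome X, 151912509 to 151925170), a cancer-testis antigen, led them with 305 reads with decitabine and 0 with DMSO, at least 84.8-fold higher against a floor of 3 reads in the DMSO library. H19 (ENSG00000130600, chromosome 11, 1995176 to 2001470), whose noncoding RNA normally comes from the maternal allele, had 205 reads with decitabine and 0 with DMSO, at least 57-fold higher. DAZL (ENSG00000092345, chromosome 3, 16586792 to 16670306), a germ cell RNA-binding protein, had 91 reads with decitabine against 0 with DMSO, at least 25.3-fold higher. GTSF1, a germline protein that takes part in piRNA-guided transposon silencing, had 32 with decitabine against 0 with DMSO. MEG3, like H19 an imprinted noncoding RNA gene, had 42 reads with decitabine and 0 with DMSO.

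The other newly detected genes with most reads were mostly secreted or membrane proteins. LCN1 (ENSG00000160349, chromosome 9, 135521438 to 135526532), tear lipocalin, had 93 reads with decitabine and 0 with DMSO. GYPC (ENSG00000136732, chromosome 2, 126655933 to 126696670), glycophorin C of the red cell membrane skeleton, had 88 with decitabine against 0 with DMSO. Neither had a read in the CAL27 libraries. SFRP1, a secreted Wnt antagonist, had 64 reads with decitabine and 0 with DMSO. WNT10A, a Wnt ligand, had 36 with decitabine and 0 with DMSO, so an antagonist and a ligand of the same pathway were both newly detected. COL14A1 (51 reads with decitabine against 0 with DMSO) and COL1A2 (37 with decitabine against 0 with DMSO) encode collagen chains. SERPINA1 (44 with decitabine against 0 with DMSO), an inhibitor of neutrophil elastase, and TFPI2 (33 with decitabine against 0 with DMSO) inhibit serine proteases. TRPA1, an irritant-gated cation channel, had 38 reads with decitabine and 0 with DMSO. The chemokine CXCL5 had 51 with decitabine against 0 with DMSO. Over the 15 newly detected genes with most reads the lower bound of the fold ran from 8.9 for GTSF1 to 84.8 for MAGEA4.

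**Figure D2:**
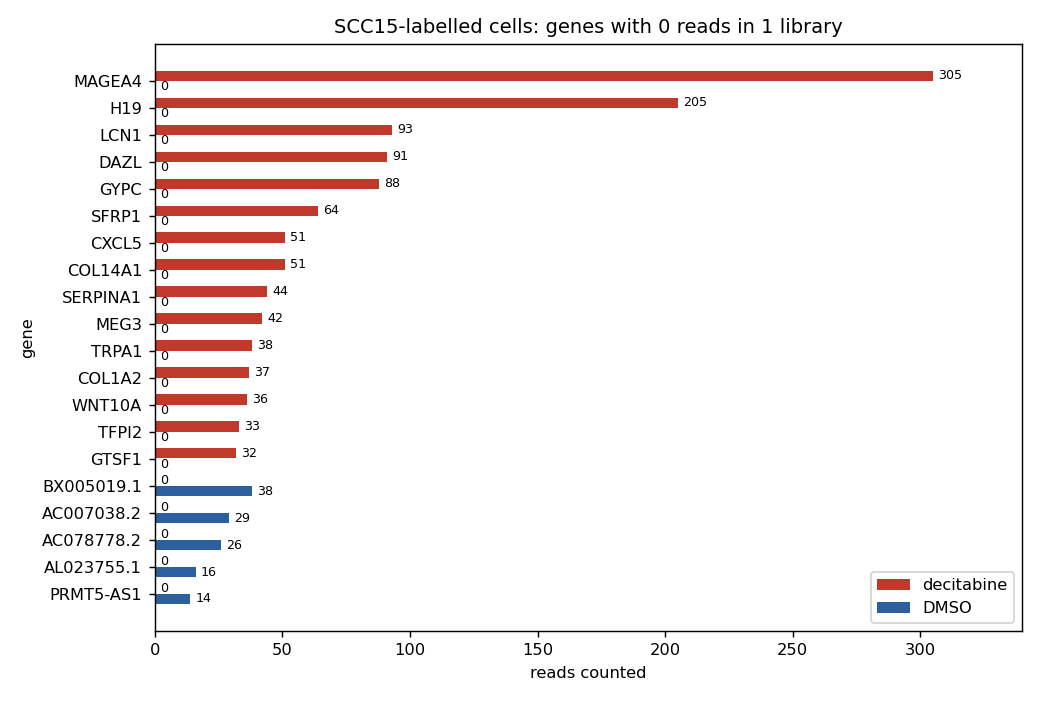
Reads counted (horizontal axis) with decitabine (red) and with DMSO (blue) for the 15 newly detected genes with most reads and the 5 lost genes with most reads in the SCC15-labelled pair, with each count beside its bar. MAGEA4 at 305 and H19 at 205 stand above the rest, and no lost gene exceeds 38 reads.

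The promoters of 4 newly detected genes are shown because they differ in the density of CpG, the dinucleotide that carries DNA methylation. Each is the RefSeq window of GRCh38.p14 from 250 bases before to 50 after the annotated start, with every CpG in capitals. DAZL lies at chr3:16605374-16605673 on the minus strand, MAGEA4 at chrX:151912224-151912523 on the plus strand, H19 at chr11:2001217-2001516 on the minus strand and GYPC at chr2:126655908-126656207 on the plus strand.
DAZL: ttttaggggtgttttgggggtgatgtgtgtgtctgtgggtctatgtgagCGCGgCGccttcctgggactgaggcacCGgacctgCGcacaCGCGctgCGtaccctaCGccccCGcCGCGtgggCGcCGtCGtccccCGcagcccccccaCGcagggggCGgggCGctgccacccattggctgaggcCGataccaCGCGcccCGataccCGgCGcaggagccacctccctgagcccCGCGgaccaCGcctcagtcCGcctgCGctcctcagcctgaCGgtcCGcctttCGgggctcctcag
MAGEA4: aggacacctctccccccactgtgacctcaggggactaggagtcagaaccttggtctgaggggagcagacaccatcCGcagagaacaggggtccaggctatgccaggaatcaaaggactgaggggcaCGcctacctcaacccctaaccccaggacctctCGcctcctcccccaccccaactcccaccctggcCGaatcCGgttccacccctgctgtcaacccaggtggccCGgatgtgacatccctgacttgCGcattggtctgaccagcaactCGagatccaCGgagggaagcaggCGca
H19: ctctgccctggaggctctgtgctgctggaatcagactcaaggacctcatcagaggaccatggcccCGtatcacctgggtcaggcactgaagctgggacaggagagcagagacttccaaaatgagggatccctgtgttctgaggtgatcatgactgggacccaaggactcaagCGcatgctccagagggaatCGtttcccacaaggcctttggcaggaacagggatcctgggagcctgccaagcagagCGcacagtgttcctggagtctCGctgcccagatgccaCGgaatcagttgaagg
GYPC: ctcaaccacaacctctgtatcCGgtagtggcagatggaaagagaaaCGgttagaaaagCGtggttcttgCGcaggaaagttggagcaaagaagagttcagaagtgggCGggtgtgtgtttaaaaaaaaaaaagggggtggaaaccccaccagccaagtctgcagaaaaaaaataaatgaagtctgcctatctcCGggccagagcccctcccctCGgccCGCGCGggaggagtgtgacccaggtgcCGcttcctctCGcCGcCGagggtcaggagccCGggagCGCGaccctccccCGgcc
The DAZL window holds 33 CpG, the GYPC window 18, the MAGEA4 window 10 and the H19 window 6. A window was called CpG-rich when its observed over expected CpG was at least 0.6 and its GC content at least 50%. DAZL (0.862) and GYPC (0.725) are CpG-rich by this rule, and MAGEA4 (0.354) and H19 (0.242) are not. Of the 97 newly detected protein-coding genes 63 had a RefSeq window, and 27 of these (42.9%) were CpG-rich. Among protein-coding genes with 0 reads with DMSO that stayed under 10 with decitabine, the share was 28.0% (1050 of 3744), and among measured protein-coding genes 81.5%. No methylation was measured, so the windows describe sequence only.

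The reads of these genes in the other line are set beside them. With DMSO, CAL27 had at least 10 reads for 39 of the 129 genes and 1 to 9 reads for another 46. Of all 51103 genes 14403 had at least 10 reads there. The share among genes without DMSO reads in the SCC15-labelled cells was not computed. MAGEA4 had 5097 reads with decitabine and 3896 with DMSO in CAL27, and SERPINA1 had 1115 with decitabine and 759 with DMSO. In both CAL27 libraries 18 of the 129 had 0 reads. By the same rule CAL27 had 56 newly detected genes, of which 4 were also among the 129. The 129 are 0.424% of the genes without DMSO reads in the SCC15-labelled pair. How many of the 56 were among those genes was not computed, so the overlap is description only.

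By their annotation the 5 lost genes with most reads are noncoding. BX005019.1 had 0 reads with decitabine and 38 with DMSO, at least 15.2-fold lower. AC007038.2 (0 with decitabine against 29 with DMSO), AC078778.2 (0 with decitabine against 26 with DMSO), AL023755.1 (0 with decitabine against 16 with DMSO) and PRMT5-AS1 (0 with decitabine against 14 with DMSO) followed. Each had fewer reads than MAGEA4, H19, LCN1, DAZL and GYPC, the newly detected genes with most reads.

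Among genes with reads in both libraries, 15 were singled out by the highest lower limit of the counting interval, and cytokine genes recur among them. CCL20 (ENSG00000115009, chromosome 2, 227805739 to 227817564), the ligand of the chemokine receptor CCR6, had 154 reads with decitabine and 1 with DMSO, a log2 ratio of 5.53 with an interval of 4.51 to 12.32. IL1B, interleukin 1 beta, had 87 with decitabine and 1 with DMSO (log2 ratio 4.72, interval 3.67 to 11.50), and TNF, tumour necrosis factor, had 55 with decitabine and 1 with DMSO (log2 ratio 4.08, interval 2.98 to 10.85). With 1 read in the DMSO library, these upper limits are wide. CSF2, the growth factor GM-CSF, had 151 reads with decitabine and 7 with DMSO (log2 ratio 3.86, interval 3.09 to 5.51). IL32, a proinflammatory cytokine, had 69 with decitabine against 1 with DMSO (log2 ratio 4.40, interval 3.32 to 11.17). ICAM1 (ENSG00000090339, chromosome 19, 10270835 to 10286615), the leukocyte adhesion receptor, rested on more reads, with 654 with decitabine against 37 with DMSO and a log2 ratio of 3.82 (interval 3.40 to 4.40).

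The narrowest interval of the 15 was that of TGM2 (ENSG00000198959, chromosome 20, 38127387 to 38166578), the protein crosslinking enzyme transglutaminase 2. It had 2507 reads with decitabine and 167 with DMSO, a log2 ratio of 3.63 (interval 3.42 to 3.88), while CAL27 had 3431 with decitabine and 3717 with DMSO. PCK1, which commits carbon to gluconeogenesis, had 68 with decitabine against 1 with DMSO (log2 ratio 4.38, interval 3.30 to 11.15). SLC7A8, a neutral amino acid transporter, had 108 with decitabine against 3 with DMSO (log2 ratio 4.25, interval 3.32 to 7.21). Others were COL9A2, a collagen IX chain with 324 reads with decitabine against 18 with DMSO (log2 ratio 3.78, interval 3.22 to 4.68), the aggrecan-cleaving protease ADAMTS4 with 61 with decitabine against 1 with DMSO, and the chondroitin sulfotransferase CHST15 with 100 with decitabine against 4 with DMSO. PPP1R1B, a phosphatase inhibitor of dopamine signalling, had 128 reads with decitabine and 3 with DMSO (log2 ratio 4.49, interval 3.57 to 7.45). The sorting receptor SORCS2 had 413 with decitabine against 28 with DMSO (log2 ratio 3.54, interval 3.07 to 4.23). All 15 were protein-coding.

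**Figure D3:**
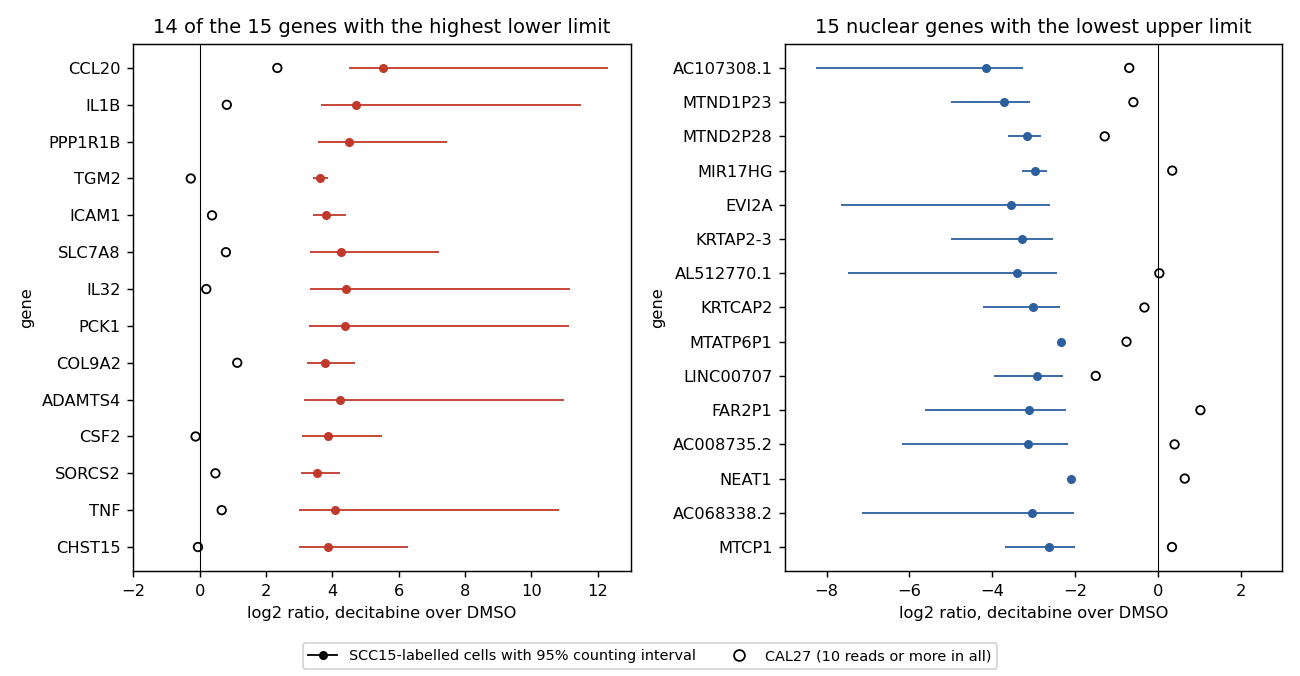
Log2 ratios of decitabine over DMSO (horizontal axis) with 95% counting intervals in the SCC15-labelled pair, for 14 of the 15 genes with the highest lower limit (left) and the 15 nuclear genes with the lowest upper limit (right), beside CAL27 ratios as open circles where CAL27 had at least 10 reads in all. Intervals are wide where DMSO had 1 read (CCL20, IL1B, IL32, PCK1, ADAMTS4, TNF), and the CAL27 ratios of TGM2, MIR17HG and NEAT1, among others, lie on the other side of 0.

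Genes at 100 CPM or more in either library had smaller ratios but many reads. Among the highest was, after TGM2, CLIP2, a microtubule linker protein with 1734 reads with decitabine and 296 with DMSO (log2 ratio 2.28, interval 2.11 to 2.47). The neutrophil chemokine CXCL1 had 1784 with decitabine and 370 with DMSO (log2 ratio 2.00, interval 1.85 to 2.17). NMNAT2, which makes NAD in neurons, had 2432 with decitabine and 521 with DMSO (log2 ratio 1.96). IGFBP5, a binding protein of insulin-like growth factors, had 4498 reads with decitabine and 993 with DMSO (log2 ratio 1.92, interval 1.82 to 2.02), and CAL27 had only 11 with decitabine and 2 with DMSO. ADAMTS9, a matrix protease, had 1682 with decitabine and 370 with DMSO (log2 ratio 1.92) with 0 reads in CAL27. The Wnt coactivator BCL9L had 1924 with decitabine and 424 with DMSO (log2 ratio 1.92).

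Cytokine and NF-kB target genes had the highest median ratio of the lists with 10 or more measured members. NF-kB is a family of transcription factors that switches on inflammatory cytokines, adhesion receptors and its own inhibitors. Of 44 listed genes 36 were measured, and 26 were higher and 0 lower, beside 13.3% and 6.2% of all measured genes. Members under 1 CPM with DMSO, among them CCL20, IL1B, TNF, IL32, CSF2, CSF3 and IL1A, could not have come out lower. Their median log2 ratio was 1.53, against 0.07 over all measured genes, and 35 of the 36 ratios lay above 0. Among ligands, CSF3 (112 reads with decitabine, 7 with DMSO), IL1A (66 with decitabine and 8 with DMSO), CXCL3 (188 with decitabine and 31 with DMSO) and CCL2 (214 with decitabine and 40 with DMSO), named after their values were seen, extended the group led by CCL20. With the trend of the ratio on transcript GC removed, 23 members were higher and 0 lower, beside 9.22% and 4.87% of all measured genes, and the median log2 ratio was 1.67. CAL27 had 39 measured members, of which 4 were higher and 0 lower, beside 5.14% and 1.29% of all its measured genes, with a median log2 ratio of 0.45 beside 0.00 over all its genes. In absolute reads CAL27 had more IL1B (4084 with decitabine, 2082 with DMSO) and ICAM1 (4749 with decitabine and 3297 with DMSO) than the SCC15-labelled cells in either state.

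Promoters of cytokine genes are shown for a form of the sequence that NF-kB binds, searched on both strands as GGG, then any 3 bases, then TTCC. The windows are those of CCL20 (chr2:227813592-227813891, plus strand), CXCL5 (chr4:73998628-73998927, minus strand) and CXCL1 (chr4:73869143-73869442, plus strand), from RefSeq on GRCh38.p14, with matches on either strand in capitals.
CCL20: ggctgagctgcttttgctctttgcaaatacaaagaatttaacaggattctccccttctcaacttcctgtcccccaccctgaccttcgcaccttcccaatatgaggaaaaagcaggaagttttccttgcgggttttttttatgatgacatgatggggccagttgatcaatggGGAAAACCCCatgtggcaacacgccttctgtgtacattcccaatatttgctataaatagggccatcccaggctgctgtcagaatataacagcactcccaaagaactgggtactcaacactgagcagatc
CXCL5: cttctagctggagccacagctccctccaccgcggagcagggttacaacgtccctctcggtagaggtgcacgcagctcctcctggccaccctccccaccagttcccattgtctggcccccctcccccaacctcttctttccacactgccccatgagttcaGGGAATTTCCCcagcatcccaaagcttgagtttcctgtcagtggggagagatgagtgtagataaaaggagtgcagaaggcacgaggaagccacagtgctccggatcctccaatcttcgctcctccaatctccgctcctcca
CXCL1: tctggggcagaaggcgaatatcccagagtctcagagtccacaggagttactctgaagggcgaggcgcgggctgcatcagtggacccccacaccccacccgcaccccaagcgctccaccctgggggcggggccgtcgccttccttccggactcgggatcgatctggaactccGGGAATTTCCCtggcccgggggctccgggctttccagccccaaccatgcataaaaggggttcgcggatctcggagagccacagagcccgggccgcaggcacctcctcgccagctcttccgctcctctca
In CXCL5 and CXCL1 the capitals cover 2 overlapping matches, 1 on each strand, and in CCL20 there is 1 match. Of 33 listed cytokine and NF-kB genes with a window 17 (51.5%) held the motif, as did 10 of the 20 higher members, 2289 of 35116 RefSeq windows (6.52%) and 763 of 10057 measured genes (7.59%). These genes were listed as NF-kB targets, so the share describes the list. IL1B, TNF, CSF2 and ICAM1 had no match in this window. Among all higher genes the share was 9.11%, and among newly detected genes with a window 15.5% (11 of 71).

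Interferon-stimulated genes, which encode antiviral effectors, had 12 members higher and 0 lower of 39 measured, beside 13.3% and 6.2% of all measured genes, with a median log2 ratio of 0.82, or 0.90 with the GC trend removed. OAS1, a sensor that makes oligoadenylate on double-stranded RNA, had 17 reads with decitabine and 1 with DMSO (log2 ratio 2.50, interval 1.15 to 9.21). BST2, which tethers virus particles, had 112 with decitabine and 17 with DMSO (log2 ratio 2.34, interval 1.72 to 3.29). The lymphocyte chemokines CXCL10 (118 with decitabine and 20 with DMSO, log2 ratio 2.20) and CXCL11 (49 with decitabine and 10 with DMSO, log2 ratio 1.85) were also higher. Of 18 measured antigen presentation genes 4 were higher and 1 lower (22.2% and 5.56%), with a median log2 ratio of 0.65 that was 0.30 with the GC trend removed. TAP1, a peptide transporter subunit, had 136 reads with decitabine and 37 with DMSO (log2 ratio 1.57), and TAPBP, its partner tapasin, had 2169 with decitabine and 783 with DMSO (log2 ratio 1.21). CIITA, the activator of class II genes, was the lower member with 13 with decitabine and 26 with DMSO. A blood marker moved beside these lists. CD14, a monocyte receptor that other cells also make, had 72 reads with decitabine and 4 with DMSO. Among 10 blood markers PTPRC, CD3E, CD79A and HBB were at 0 in both libraries, and the summed level was 6.96 CPM with decitabine and 1.71 with DMSO. In bulk libraries such as these, more cells of a type and more RNA per cell cannot be told apart.

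Collagens form the fibres and networks of the extracellular matrix. Of 23 measured collagen genes 12 were higher and 0 lower, beside 13.3% and 6.2% of all measured genes. Members under 1 CPM with DMSO, among them COL5A1, COL14A1 and COL1A2, could not have come out lower. The median log2 ratio of the collagen genes was 1.04 (0.75 with the GC trend removed, with 8 higher and 1 lower). COL5A1, a chain of fibrillar collagen V, had 39 reads with decitabine and 1 with DMSO (log2 ratio 3.61, interval 2.46 to 10.36), and COL1A1 had 181 with decitabine and 20 with DMSO (log2 ratio 2.81, interval 2.25 to 3.66). COL3A1 had 798 with decitabine and 322 with DMSO, close to the 2-fold limit at a log2 ratio of 1.04. Of 25 measured integrin and laminin genes, which encode receptors and basement membrane ligands, 14 were higher and 0 lower, with a median log2 ratio of 1.04 (0.78 with the trend removed, 10 higher). CAL27 had 2 higher and 0 lower of 28 and a median log2 ratio of -0.02. ITGB4, which anchors epithelia to laminin, had 1512 reads with decitabine and 171 with DMSO (log2 ratio 2.87, interval 2.65 to 3.12). ITGA11, a collagen receptor chain, had 1020 with decitabine and 182 with DMSO (log2 ratio 2.21), and ITGA7, a laminin receptor chain, had 217 with decitabine and 47 with DMSO (log2 ratio 1.91). The epithelial laminin chain LAMB3 (514 with decitabine and 134 with DMSO, log2 ratio 1.66) was also higher.

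Matrix proteases and their inhibitors had 9 higher and 2 lower of 23 measured, beside 13.3% and 6.2% of all measured genes. Their median log2 ratio was 0.92, and with the GC trend removed 8 were higher and 0 lower. MMP14, a membrane-bound collagenase, had 194 reads with decitabine and 27 with DMSO (log2 ratio 2.51, interval 2.00 to 3.22), and MMP11 had 120 with decitabine and 21 with DMSO (log2 ratio 2.16). The lower members, named after their values were seen, were the collagenase MMP1 (32 with decitabine and 65 with DMSO, log2 ratio -1.23) and ADAMTS6 (23 with decitabine and 42 with DMSO, log2 ratio -1.06). Of 11 measured mesenchymal markers 4 were higher and 0 lower, with a median log2 ratio of 0.27, or 0.73 with the GC trend removed. Their summed level was 2906 CPM with decitabine and 3691 with DMSO, set mainly by VIM at a log2 ratio of -0.73. TWIST1, DCN and FAP had 0 reads in both libraries. None of 10 measured regulators of epithelial-mesenchymal transition passed 2-fold, with SNAI2 at a log2 ratio of -0.66, ZEB1 at a log2 ratio of 0.22 and ZEB2 at a log2 ratio of 0.27.

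Several epithelial genes that were scarce with DMSO had more reads with decitabine. TP63, the squamous lineage transcription factor, had 24 reads with decitabine and 0 with DMSO, against 2163 with decitabine and 2133 with DMSO in CAL27. SFN, the epithelial cell cycle regulator stratifin, had 33 with decitabine and 2 with DMSO, and KRT19 had 28 with decitabine and 2 with DMSO. Of 12 measured genes of desmosomes and the cornified envelope 6 were higher and 2 lower, beside 13.3% and 6.2% of all measured genes. JUP, plakoglobin, had 545 reads with decitabine and 81 with DMSO (log2 ratio 2.46, interval 2.15 to 2.84), and PPL, periplakin, had 653 with decitabine and 139 with DMSO (log2 ratio 1.96). PKP1, a desmosomal plakophilin, was lower with 4 with decitabine and 15 with DMSO. Of 6 measured mucin and secretory genes 4 were higher and 0 lower, among them AGR2, a disulfide isomerase of mucus cells (240 reads with decitabine, 32 with DMSO, log2 ratio 2.58), MUC1 (41 with decitabine and 7 with DMSO, log2 ratio 2.03) and CEACAM1 (450 with decitabine and 92 with DMSO, log2 ratio 2.01). Of 11 measured claudin and tight junction genes 3 were higher, led by CLDN4 with 70 with decitabine and 15 with DMSO (log2 ratio 1.84). These levels stayed low beside CAL27, which had 3243 reads of CLDN4 with decitabine and 2038 with DMSO, and 6734 of JUP with decitabine and 3817 with DMSO.

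Notch receptors are cleaved on binding ligands of neighbouring cells, and of 20 measured pathway genes 6 were higher and 0 lower (median log2 ratio 0.56, or 0.24 with the GC trend removed). The receptors NOTCH3 (372 reads with decitabine, 58 with DMSO, log2 ratio 2.38) and NOTCH2 (3108 with decitabine and 1017 with DMSO, log2 ratio 1.35) and the ligand JAG2 (92 with decitabine and 23 with DMSO, log2 ratio 1.66) were among them. Of 10 measured genes of the EGF receptor family 3 were higher and 0 lower, or 5 and 0 with the GC trend removed. The 3 were the receptors ERBB2 (614 with decitabine and 164 with DMSO, log2 ratio 1.63) and ERBB3 (53 with decitabine and 16 with DMSO, log2 ratio 1.37) and the ligand TGFA (1682 with decitabine and 590 with DMSO, log2 ratio 1.25). Of 26 measured genes of neuroendocrine granules and exocytosis 4 were higher and 1 lower, shares of 15.4% and 3.85% near the 13.3% and 6.2% of all measured genes. Their median log2 ratio was 0.83, or 0.51 with the GC trend removed. The calcium sensors SYT12 (118 with decitabine and 18 with DMSO, log2 ratio 2.34) and SYT7 (295 with decitabine and 65 with DMSO, log2 ratio 1.89) were higher, the peptide GAL (74 with decitabine and 141 with DMSO, log2 ratio -1.17) was lower, and the abundant granin CHGA, at a log2 ratio of 0.96, lay just under the 2-fold limit.

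**Figure D4:**
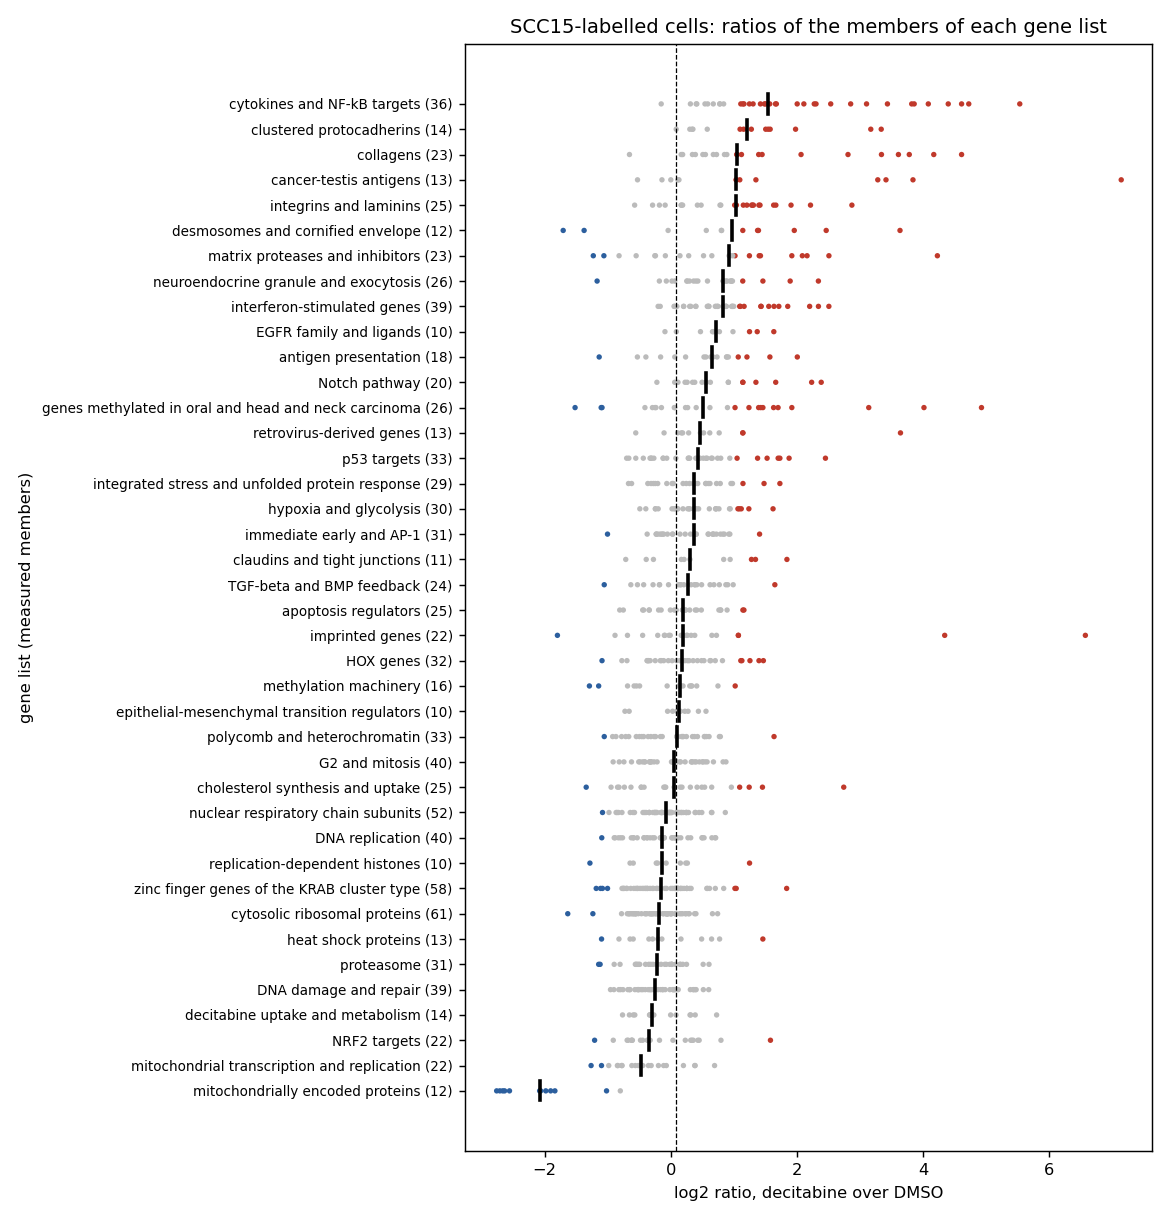
Log2 ratio of decitabine over DMSO (horizontal axis) of every measured member of each list with at least 10 measured members in the SCC15-labelled pair, ordered by the list's median (black bar), with members at least 2-fold higher in red and at least 2-fold lower in blue. Cytokine and NF-kB targets have the highest median at 1.53, mitochondrially encoded proteins the lowest at -2.07, and the dashed line marks the median of all measured genes at 0.07.

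Of the gene groups known for silencing by methylation, cancer-testis antigens and germline genes were represented by few measured members. Their counts stand beside 13.3% higher and 6.2% lower of all measured genes. Of 54 matched cancer-testis antigens, which are expressed in the testis and in tumours, 25 had 0 reads in both libraries and 13 were measured. Of these 13, 8 were higher and 0 lower, but MAGEA4, CTAG2 (29 reads with decitabine, 0 with DMSO), CTCFL (21 with decitabine and 0 with DMSO) and MAGEA10 (19 with decitabine and 0 with DMSO) were measured only through their decitabine reads and could not have come out lower. With the GC trend removed 5 of the 13 were higher. Members with many reads in both libraries, named after their values were seen, included MAGEA3 (2747 with decitabine and 2526 with DMSO, log2 ratio -0.14), MAGEA12 (2223 with decitabine and 1855 with DMSO) and PRAME (2177 with decitabine and 882 with DMSO, log2 ratio 1.04). The MAGEA genes are near-identical copies, so counting may split their reads. Of 48 germline and meiosis genes 8 were measured, with 2 higher (DAZL and GTSF1) and 2 lower. The lower ones were REC8, a meiotic cohesin, with 7 with decitabine and 20 with DMSO, and HSF4, with 10 with decitabine and 23 with DMSO. HSF4 encodes a heat shock transcription factor, so its place in this list is loose.

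Of 22 measured imprinted genes 4 were higher and 1 lower, shares near the 13.3% and 6.2% of all measured genes, and their median log2 ratio was 0.19. DIRAS3, a Ras-like growth suppressor, was the lower one with 5 reads with decitabine and 19 with DMSO (log2 ratio -1.80, interval -3.96 to -0.72). Of 26 measured genes listed for silencing by methylation in oral or head-neck tumours 11 were higher and 3 lower, with a median log2 ratio of 0.51. With the GC trend removed 9 were higher and 2 lower, and the median was 0.50. PAX5, a B cell transcription factor, had 17 reads with decitabine and 0 with DMSO. DKK1, a Wnt antagonist named after its value was seen, was lower at 782 with decitabine and 1871 with DMSO (log2 ratio -1.52). Clustered protocadherins, adhesion molecules expressed from alternative promoters, had 14 measured members of 53, with 9 higher and 0 lower and a median log2 ratio of 1.21. With the GC trend removed 7 were higher and 0 lower, and the median was 1.01. PCDHGA12 had 44 with decitabine and 2 with DMSO (log2 ratio 3.33, interval 2.26 to 7.29), and PCDHGA11 had 39 with decitabine and 2 with DMSO (log2 ratio 3.17). Both were under 1 CPM with DMSO, so neither could have come out lower. The gamma cluster genes share their last exons, so reads may be split or dropped in counting. Of 13 measured retrovirus-derived genes 3 were higher, with PNMA5 newly detected (25 with decitabine and 0 with DMSO). Their median log2 ratio was 0.47, or 0.01 with 2 higher once the GC trend was removed. HOX genes, which set position along the body axis, had 5 higher and 1 lower of 32 and a median log2 ratio of 0.18. Their shares of 15.6% and 3.1% lay near those of all measured genes. After removal of the GC trend they had 1 higher and 2 lower and a median log2 ratio of -0.13. KRAB zinc finger genes had 3 higher and 4 lower of 58 and a median log2 ratio of -0.16, against 4 higher and 1 lower and a median of 0.21 with the trend removed.

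Stress and growth control lists had medians nearer to that of all genes. Of 33 measured p53 targets 7 were higher and 0 lower (median log2 ratio 0.43), led by CDKN1A, the cell cycle inhibitor p21, with 724 reads with decitabine and 109 with DMSO (log2 ratio 2.45, interval 2.18 to 2.77). PHLDA3, an Akt inhibitor, had 19 with decitabine and 3 with DMSO. SESN2, a stress-induced sestrin, had 299 with decitabine and 74 with DMSO (log2 ratio 1.73). Of 29 measured genes of the integrated stress and unfolded protein response 3 were higher and 0 lower, and of 30 hypoxia and glycolysis genes 5 were higher and 0 lower. The higher shares of the stress response and hypoxia lists, 10.3% and 16.7%, lay near the 13.3% of all measured genes. Once the GC trend was removed, 1 gene of each list was higher. PFKL, a phosphofructokinase subunit, had 2218 reads with decitabine and 784 with DMSO (log2 ratio 1.24), and NDRG1 had 330 with decitabine and 126 with DMSO (log2 ratio 1.12). Heat shock genes (1 higher and 1 lower of 13), NRF2 targets (1 and 1 of 22), immediate early genes (1 and 1 of 31) and apoptosis regulators (2 and 0 of 25) had few members past 2-fold. The cholesterol pathway had a median log2 ratio of 0.05 over 25 genes with 4 higher and 1 lower, or -0.11 with 2 higher and 0 lower with the GC trend removed. TM7SF2, a sterol reductase, was higher with 461 with decitabine and 56 with DMSO (log2 ratio 2.74, interval 2.38 to 3.21), as was the lipogenic regulator SREBF1 with 5777 with decitabine and 1760 with DMSO (log2 ratio 1.45). IDI1, an isoprenoid isomerase, was lower with 1050 with decitabine and 2222 with DMSO (log2 ratio -1.34).

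Of 16 measured genes of the methylation machinery 1 was higher and 2 lower, with a median log2 ratio of 0.14, and with the GC trend removed 0 were higher and 1 lower. DNMT1, the maintenance methyltransferase that decitabine traps, had 6467 reads with decitabine and 4059 with DMSO (log2 ratio 0.41, interval 0.35 to 0.47). The de novo enzyme DNMT3A had 595 with decitabine and 295 with DMSO (log2 ratio 0.75, interval 0.55 to 0.96). HELLS, a remodeller needed for methylation, had 1440 with decitabine and 2656 with DMSO (log2 ratio -1.14), and UHRF2, a paralogue of the DNMT1 cofactor UHRF1, had 481 with decitabine and 984 with DMSO (log2 ratio -1.29). With the GC trend removed these were -0.59 for HELLS and -1.07 for UHRF2. Of 14 measured genes of decitabine uptake and metabolism 0 passed 2-fold in either direction. DCK, the kinase that activates the drug, was at a log2 ratio of -0.60, and SAMHD1, which cleaves its triphosphate, was at a log2 ratio of 0.73.

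Replication and division genes had fewer members past 2-fold than the 13.3% and 6.2% of all measured genes. Those shares include many genes with few reads. Of 6200 protein-coding genes with a mean of 30 CPM or more 7.19% were higher and 1.79% lower, and the lower share of replication genes was 2.5%. Of 40 measured replication genes 0 were higher and 1 lower (POLE2, a polymerase epsilon subunit, at a log2 ratio of -1.09), and of 40 G2 and mitosis genes and 39 repair genes 0 passed in either direction. The median log2 ratios were -0.13, 0.06 and -0.26, and the repair median was 0.02 with the GC trend removed. MKI67, a proliferation marker, had 6542 reads with decitabine and 2977 with DMSO (log2 ratio 0.87). Of 61 ribosomal protein genes 0 were higher and 2 lower, and of 31 proteasome genes 0 and 2.

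Transcripts of the mitochondrial genome took 1.52% of counted reads with decitabine and 7.60% with DMSO (exact 95% intervals 1.52 to 1.53 and 7.59 to 7.61). At this precision all of these reads lay in its 13 listed protein genes, so the shares leave out its ribosomal and transfer RNAs. Of 12 measured protein genes of the mitochondrial genome 11 were at least 2-fold lower, the median log2 ratio was -2.07, and all 12 lay below 0. MT-ND4, a complex I subunit, had 32852 reads with decitabine and 185669 with DMSO (log2 ratio -2.76). MT-CO1, of cytochrome c oxidase, had 53480 with decitabine and 276918 with DMSO (log2 ratio -2.63). The least changed, named after their values were seen, were MT-ND3 at a log2 ratio of -1.02 and MT-ND4L at a log2 ratio of -0.80. Nuclear genes of the same respiratory complexes did not move with them, with 0 higher and 1 lower of 52 and a median log2 ratio of -0.07. Of 22 nuclear genes of mitochondrial transcription and replication 0 were higher and 2 lower, and 18 lay below 0. These 2 were POLG2, an accessory polymerase subunit with 160 with decitabine and 323 with DMSO (log2 ratio -1.26), and MTERF3, a transcription factor with 258 with decitabine and 463 with DMSO (log2 ratio -1.10). The list's median log2 ratio was -0.47, and -0.15 with the GC trend removed.

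The lowest ratios among nuclear genes belonged largely to noncoding transcripts and pseudogenes. MTND1P23 (11 reads with decitabine, 144 with DMSO), MTND2P28 (60 with decitabine and 466 with DMSO) and MTATP6P1 (5672 with decitabine and 24148 with DMSO, log2 ratio -2.35) are nuclear copies of mitochondrial genes, and counting may share reads between copy and original. AC107308.1, a transcript inside an intron, had 2 with decitabine and 60 with DMSO (log2 ratio -4.15, interval -8.25 to -3.25). MIR17HG (ENSG00000215417, chromosome 13, 91347820 to 91354579), the host transcript of a cluster of oncogenic microRNAs, had 109 reads with decitabine and 720 with DMSO, a log2 ratio of -2.96 (interval -3.29 to -2.69) that was -2.41 with the GC trend removed. NEAT1 (ENSG00000245532, chromosome 11, 65422774 to 65445540), the scaffold RNA of nuclear paraspeckles, had 1618 with decitabine and 5816 with DMSO (log2 ratio -2.11, interval -2.19 to -2.03). In CAL27 both were above 0, at 0.34 for MIR17HG and 0.64 for NEAT1. LINC00707 was lower in both lines, with 15 reads with decitabine and 106 with DMSO here (log2 ratio -2.91) and 21 with decitabine and 57 with DMSO in CAL27 (-1.51).

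Protein-coding genes with the lowest upper limits had few reads in most cases. EVI2A, a gene nested in an intron of NF1, had 2 reads with decitabine and 39 with DMSO (log2 ratio -3.55, interval -7.64 to -2.60), and KRTAP2-3, a hair keratin-associated protein, had 7 with decitabine and 73 with DMSO (log2 ratio -3.29). KRTCAP2, a subunit of the oligosaccharyltransferase, had 12 with decitabine and 94 with DMSO (log2 ratio -3.02, interval -4.23 to -2.36), and MTCP1 had 15 with decitabine and 87 with DMSO (log2 ratio -2.63). Others had more reads. PNN, the splicing-associated protein pinin, had 1978 reads with decitabine and 5002 with DMSO (log2 ratio -1.60, interval -1.68 to -1.52). CLK1, a kinase of splicing factors, had 704 with decitabine and 1744 with DMSO (log2 ratio -1.57), and RSRP1, an arginine and serine rich protein, had 172 with decitabine and 634 with DMSO (log2 ratio -2.13). RABGGTB, a subunit of the enzyme that prenylates Rab proteins, had 1014 with decitabine and 2988 with DMSO (log2 ratio -1.82), or -1.24 with the GC trend removed. The host genes SNHG1 (908 with decitabine and 2495 with DMSO, log2 ratio -1.72) and SNHG4 (690 with decitabine and 1858 with DMSO, log2 ratio -1.69), whose introns hold small nucleolar RNAs, were also among the 8 lowest of the abundant genes. SVIP, an inhibitor of endoplasmic reticulum-associated degradation, had 683 with decitabine and 1674 with DMSO (log2 ratio -1.55).

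Annotation classes split along the same line. Of 12196 measured nuclear protein-coding genes 13.5% were higher and 4.01% lower, with a median log2 ratio of 0.11. Of 1686 measured nuclear genes of other biotypes 11.9% were higher and 21.5% lower, with a median of -0.24. The lower share was 23.7% of 426 lincRNA genes, 20.5% of 484 antisense genes and 31.0% of 84 sense intronic genes. With the GC trend removed these shares were 18.8% of lincRNA, 20.7% of antisense and 15.5% of sense intronic genes, and the median log2 ratio of sense intronic genes was -0.18 in place of -0.58. Among genes at 30 CPM or more 26.4% of 53 other genes were lower against 1.79% of 6200 protein-coding genes. In CAL27 the medians of lincRNA and antisense genes were 0.19 and 0.20, on the other side of 0 from the -0.12 and -0.15 here. How reads were assigned by strand is not given in the sources used here, so antisense and intronic values may hold reads of the gene across from or around them.

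The ratio increased with the GC content of the transcript. In the decile of genes with the lowest GC the median log2 ratio was -0.52, with 2.45% of genes higher and 15.3% lower. In the decile with the highest GC it was 0.62, with 29.6% higher and 2.09% lower. Spearman's rho of ratio and GC was 0.538 over 13882 genes, all from the same 2 libraries, and 0.267 over 14226 genes in CAL27. With the trend removed by a smooth curve, 1281 genes were higher and 677 lower, and 1097 and 490 of these were the same genes as before. Of the genes named here as higher, TAPBP, COL3A1, SREBF1, PFKL, NDRG1 and PRAME then fell short of 2-fold, as did CLK1, SVIP, HELLS, IDI1, MMP1, ADAMTS6, POLE2, MTERF3 and MT-ND3 of those named as lower. SREBF1 was then at a log2 ratio of 0.92, PFKL at 0.70, CLK1 at -0.89 and SVIP at -0.80. Between chromosomes the share of higher genes was 21.4% on chromosome 22, 19.8% on chromosome 17 and 18.99% on chromosome 19, where median transcript GC was 56.1%, 53.9% and 58.8%. It was 11.4% on chromosome 16, although median transcript GC there was 55.1%. The lowest shares were 5.94% on chromosome 18 and 6.43% on chromosome 13. After removal of the trend the medians of the nuclear chromosomes lay between -0.01 and 0.21. What produced the trend was not tested. Values with the GC trend removed keep the trend with transcript length given above.

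**Figure D5:**
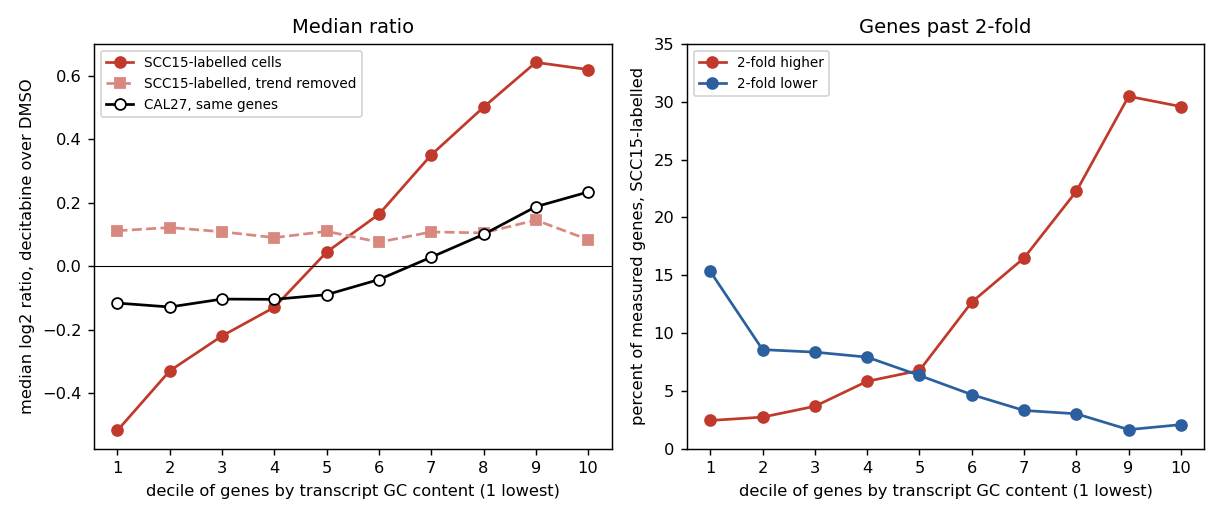
Left, median log2 ratio of decitabine over DMSO in deciles of measured genes ordered by transcript GC content, for the SCC15-labelled pair as scaled (solid red), the same with the trend removed (dashed) and CAL27 over those of the genes that it also measured (black). Right, percent of genes at least 2-fold higher (red) or lower (blue) in the SCC15-labelled pair, with the higher share at 2.45% in the first decile and 29.6% in the last.

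Genes with CpG-poor promoters were past 2-fold more often in both directions. Of 1927 measured genes with a CpG-poor window 21.7% were higher and 6.33% lower, against 10.5% and 3.83% of 8130 with a CpG-rich window. The difference was present at each level of transcript GC. With the genes cut into 3 equal classes by transcript GC, 8.24% of CpG-poor and 1.57% of CpG-rich genes were higher in the lowest class, 16.8% and 7.74% in the middle class, and 38.7% and 22.9% in the highest. The lower shares were 8.86% of CpG-poor and 7.44% of CpG-rich genes in the lowest class, 6.82% and 2.55% in the middle class, and 3.51% and 1.29% in the highest. With the GC trend removed 16.7% of CpG-poor and 6.48% of CpG-rich genes were higher, and 5.86% and 2.29% lower. The number of CpG in the window had a rho of 0.03 with the ratio over 10057 genes. The promoter classes were not matched by level, and calls in both directions were more frequent at low levels. Of 582 measured genes with a mean under 1 CPM 43.0% were higher and 26.6% lower, against 7.07% and 1.36% of 2347 at 100 CPM or more. How far level accounts for the difference between promoter classes was not tested.

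Set beside CAL27, the SCC15-labelled pair had more genes past 2-fold. CAL27 had 732 higher and 184 lower genes of 14238 measured, with 5th and 95th percentiles of the log2 ratio at -0.64 and 1.02. Among all measured genes 5.14% were higher and 1.29% lower in CAL27, and 13.3% and 6.2% in the SCC15-labelled pair. Of the 1846 genes higher in the SCC15-labelled pair 1365 were measured in CAL27. There 164 were higher, which is 8.88% of the 1846 and 22.4% of the 732, and 5 were lower. Of the 862 lower genes 642 were measured in CAL27. There 26 were lower (3.02% of the 862, 14.1% of the 184) and 31 were higher (3.60%, under the 5.14% of all its measured genes). Shares of the 1846 and of the 862 include genes that CAL27 did not measure. Over 12432 genes measured in both lines the rho of the ratios was 0.304, or 0.193 with the GC trend removed from each. With 1 culture per line and treatment, a difference in response between the lines was not tested.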

How the data were processed

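The deposited table gave, per gene and library, whole-number read counts that the authors made from their alignments and FPKM values that the authors computed from these counts. The submitters' processing notes name GRCh38, HTSeq 0.13.5 and HISAT2. Strand and other settings were not given in the sources used here. Reads of overlapping or antisense genes, and of near-identical families (MAGE, NPIP, protocadherin, keratin and chemokine genes, mitochondrial copies), may be shared or lost.

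Here, TMM factors came from edgeR 4.0.16 (R 4.3.3) over all 4 libraries on 15427 genes kept by filterByExpr (minimum count 10, minimum total 15). Ratios used a prior count of 2. A count of 0 was set to a floor of 3 reads, or 0.179 CPM with decitabine and 0.214 CPM with DMSO, to give lower bounds. With such genes at their bound, no list median given here changed by 0.01 or more. Intervals are exact conditional binomial (scipy 1.17.1). Coordinates and transcript GC are from GENCODE release 29 on GRCh38, and the GC trend was removed by lowess (fraction 0.3). RefSeq promoter windows matched 10057 of the 13894 measured genes. The interval script was checked on simulated counts.

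Named genes were the 15 with the highest lower limit, the 15 nuclear genes with the lowest upper limit (also among protein-coding genes), the 15 newly detected and 5 lost with most reads, the 8 highest and 8 lowest at 100 CPM or more, and up to 4 members with the largest ratio in size of each of 55 lists, with any member for drug targets and identity markers. A few genes that these rules name are not reported here. Members, lists and rules were chosen with earlier results of these data known. Alternatives used other scalings, including DESeq2 1.42.0 size factors, other prior counts, FPKM, other limits and the GC trend removed.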

Additional observations from a re-analysis of the deposited data

Results flagged for a closer look

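For 3 named genes the ratio lay beyond 2-fold in opposite directions in the SCC15-labelled pair and in CAL27. With 1 library per line and treatment the difference between the lines was not tested. ID2, an inhibitor of basic helix-loop-helix transcription factors, had 379 reads with decitabine and 659 with DMSO in the SCC15-labelled cells, a log2 ratio of -1.06, while CAL27 had 34 reads with decitabine and 12 with DMSO and a log2 ratio of 1.22. FAR2P1, a transcribed pseudogene, had 4 reads with decitabine and 43 with DMSO, a log2 ratio of -3.12, against 201 reads with decitabine and 88 with DMSO and a log2 ratio of 1.02 in CAL27. NPIPA1, of the multicopy nuclear pore complex interacting protein family, had 14 reads with decitabine and 70 with DMSO, a log2 ratio of -2.41, against 74 reads with decitabine and 22 with DMSO and a log2 ratio of 1.52 in CAL27. Reads of FAR2P1 and NPIPA1 may be shared with near-identical copies.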

How the results depend on the processing

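Against 1846 higher and 862 lower genes, log2(FPKM + 1) gave 673 and 227, no CPM minimum 3365 and 2766, a minimum of 5 CPM 1144 and 421, and a counting interval wholly beyond 2-fold 933 and 285. Against 129 newly detected and 28 lost genes, a minimum of 5 reads gave 495 and 256, a minimum of 30 reads 18 and 1, and at most 1 read in the other library 229 and 67. Scalings by total count, DESeq2 size factors, upper quartile or TMM over the SCC15-labelled pair gave 1593 to 1848 higher and 830 to 1068 lower genes. Prior counts of 0.5 and 5 gave 1896 and 1707 higher and 910 and 768 lower, log2(FPKM + 0.1) gave 1664 and 705, and the GC trend removed 1281 and 677. The higher share of all calls was 68.2%, and 54.9% (no CPM minimum) to 76.6% (whole interval) over these alternatives. None of them turned a called ratio of a named gene round. No paired analysis was possible because each group has 1 library, and for the same reason no library could be left out. Scaling the deeper library to the shallower gave 96 newly detected and 28 lost genes. Most newly detected and lost genes had under 30 reads, so their counts move with the read minimum. Spread between cultures was not measured.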

Other observations

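Gene families outside the lists above were looked at after their values had been seen, so their counts are description and support nothing. Voltage-gated calcium channel subunit genes had 18 measured members in the SCC15-labelled pair, with 11 higher and 0 lower and a median log2 ratio of 1.14. With the GC trend removed 7 were higher and the median was 0.78, and in CAL27 0 of 6 measured members passed 2-fold. Potassium channel genes had 12 higher and 2 lower of 37, beside 13.3% and 6.2% of all measured genes. Wnt ligands had 4 higher and 0 lower of 10, and insulin-like growth factor binding proteins 3 and 0 of 6.

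Of 18 measured small nucleolar RNA host genes 6 were lower and 0 higher, with a median of -0.82 in the SCC15-labelled pair and 0.67 in CAL27. Among all measured nuclear genes that are not protein-coding 21.5% were lower. Of 17 measured microRNA host genes 9 were lower and 0 higher, with medians of -1.01 in the SCC15-labelled pair and 0.43 in CAL27, and with the GC trend removed 5 were lower and 1 higher. Of 9 measured NPIP genes, which are near-identical copies on chromosome 16, 8 were lower, with a median of -1.77, and 8 were lower with the GC trend removed.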
